A study of Homo sapiens with 6 samples.

Results

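The plasminogen activation and coagulation genes examined here were 9 of the 47432 genes listed for LOX-IMVI melanoma cells, taken by their symbols. They comprised the plasminogen activators PLAU and PLAT, the activator receptor PLAUR, the activator inhibitors SERPINE2 and SERPINB2, the coagulation initiator F3, and the coagulation inhibitors TFPI, TFPI2 and THBD. RNA-seq compared cells of this established melanoma line after lentiviral delivery of pLKO.1 short hairpin RNA (shRNA) constructs. One group carried a control construct (shCtrl) and the other a hairpin against NFKBIZ (shNFKBIZ), which encodes the nuclear co-regulator IκBζ, with 3 libraries per group. The comparison asks how gene expression differs once NFKBIZ is depleted. All cells were selected with puromycin and grown in RPMI-1640 with FCS, and the labels name no other agent. NFKBIZ was targeted with 1 hairpin, so effects of the hairpin itself and of the loss of NFKBIZ cannot be told apart here. The study describes the libraries as separate experiments, and the labels number them without naming separate transductions, so P values measure the spread between these libraries.

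Plasminogen is a circulating proenzyme that urokinase (the product of PLAU) and tissue-type plasminogen activator (PLAT) cleave to plasmin, a protease that dissolves fibrin and degrades extracellular matrix. Urokinase works at the cell surface on its receptor PLAUR, and serpins such as SERPINE2 and SERPINB2 block the activators. Clotting starts when tissue factor (F3) binds factor VII, a step restrained by TFPI, while thrombomodulin (THBD) turns thrombin towards the anticoagulant protein C pathway. TFPI2 is a Kunitz-type inhibitor that acts on plasmin as well as on the tissue factor complex. Tumour cells, melanoma cells among them, are known to express several of these genes themselves.

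Each library held between 22264473 and 24624839 exon reads, and intron reads ranged from 1812526 to 1975528. Levels are given in TPM, read counts scaled for exon length and for the library total. The exon length is a single value per gene, whichever of its transcripts are present. Among the members it ran from 2444 bases for TFPI2 to 11714 for TFPI. Levels and ratios of different genes therefore compare only approximately, while this length does not affect the comparison of groups for 1 gene. Reads in exons of NFKBIZ numbered 1519, 1629 and 1674 in the shCtrl and 474, 477 and 468 in the shNFKBIZ libraries, a change of -1.78 in log2 fold (shNFKBIZ over shCtrl, the measure called log2 change below; SE 0.0581, adjusted P 7.20e-17, edgeR quasi-likelihood test). Of 7 melanocyte lineage markers, MLANA and SOX10 had 0 exon reads in every library and only MITF had a mean of at least 1 TPM in both groups, so that the markers of the labelled lineage were nearly absent. The summed level of these markers was 3.19 to 4.23 TPM in shCtrl and 1.79 to 2.62 TPM in shNFKBIZ. Endothelial markers, of which CLDN5 was at 0 TPM throughout, summed to 0.629 to 0.954 TPM over all libraries, and leukocyte markers, with CD3E at 0 TPM throughout, to 0.154 to 0.757 TPM. Platelet markers, with GP9, PF4 and GP1BA at 0 TPM, summed to at most 0.244 TPM.

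The levels of the members differed widely. In shCtrl cells the order of the mean TPM was TFPI2, SERPINB2, PLAUR, PLAT, TFPI, PLAU, F3, SERPINE2 and THBD, and no neighbours in this order overlapped between libraries. In shNFKBIZ cells SERPINB2 stood above TFPI2 and F3 above PLAU, again without overlap between neighbours. The activators were lower and the inhibitors SERPINE2 and SERPINB2 higher in shNFKBIZ cells, whereas in coagulation the initiator was higher and the inhibitors TFPI and TFPI2 lower. TFPI2, which also acts on plasmin, thus moved opposite to SERPINE2 and SERPINB2. Bulk RNA does not tell apart fewer cells that express a gene and less RNA per cell.

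**Figure D1:**
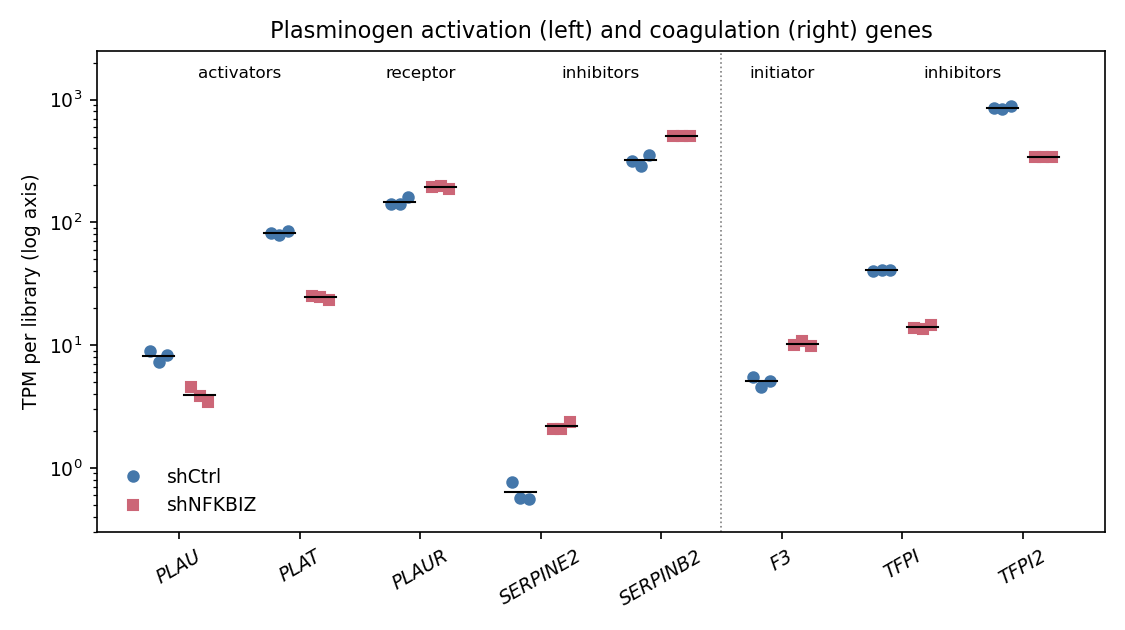
Level of 8 members in each library (TPM, log axis), in shCtrl (circles) and shNFKBIZ (squares) cells, with a black bar at the mean of 3 libraries; THBD, with 0 reads throughout, cannot be drawn on a log axis. The symbols of both groups are apart for every gene shown, and SERPINB2 and TFPI2 exchange the highest place.

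Of the 9 members, 8 passed the filter on low counts and were tested. The threshold was at least a 2-fold change together with an adjusted P of 0.05 or less. That was met by 5 members, where 8.96% of the 13843 genes tested met it. SERPINE2 was past it and higher in shNFKBIZ, as were 3.84% of all genes, and PLAU, PLAT, TFPI and TFPI2 were past it and lower, as were 5.12%. All 8 tested members had an adjusted P of at most 0.05, 4 higher and 4 lower, but so did 65.3% of all genes. All 8 also had counts per library size (CPM) that did not overlap between the groups, as did 68.7% of all genes. The median log2 fold change was -0.41 over the 8 members and 0.00431 over all genes tested. With library size alone as scaling, the median of all genes was 0.0937 and the share of higher genes among those past the threshold went from 42.9% to 53.4%, but no member changed direction.

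Promoter sequence is shown for the members in which a searched motif was found, since IκBζ acts with NF-κB and STAT factors and the groups of members moved in opposite directions. RefSeq promoters (GRCh38.p14) were found for 7 of the 9 members, with 9 promoters in all, each from 250 bases before to 50 after the annotated start. Both strands were searched for the κB consensus GGGRNNYYCC, the AP-1 motif TGANTCA and the STAT motif TTCNNNGAA (R is A or G, Y is C or T). Of 34796 distinct RefSeq promoters of the same length, 11.3%, 7.73% and 7.67% hold these. Only full matches were counted, so a site that departs from a motif, in F3 or any other member, was not found. An AP-1 match was found in 4 members and a κB match in 1, and no STAT match in any, and no matches overlapped. The 250 bases before the start follow, 5′ to 3′ on the strand of the gene, with matches in capitals. They lie at chr1:94541760-94542009 (minus strand) for F3, chr7:93890754-93891003 (minus) for TFPI2, chr18:63887455-63887704 (plus) for SERPINB2 and chr19:43670170-43670419 (minus) for PLAUR.
F3: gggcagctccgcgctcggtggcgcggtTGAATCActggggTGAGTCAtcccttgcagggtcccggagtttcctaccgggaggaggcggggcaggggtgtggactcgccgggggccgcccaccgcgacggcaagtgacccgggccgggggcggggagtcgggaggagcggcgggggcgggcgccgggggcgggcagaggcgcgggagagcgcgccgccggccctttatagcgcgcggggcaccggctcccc
TFPI2: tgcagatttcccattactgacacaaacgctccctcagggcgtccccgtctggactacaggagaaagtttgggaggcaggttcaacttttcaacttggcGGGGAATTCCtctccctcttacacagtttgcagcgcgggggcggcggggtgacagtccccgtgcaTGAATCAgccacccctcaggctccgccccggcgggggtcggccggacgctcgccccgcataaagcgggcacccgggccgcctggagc
SERPINB2: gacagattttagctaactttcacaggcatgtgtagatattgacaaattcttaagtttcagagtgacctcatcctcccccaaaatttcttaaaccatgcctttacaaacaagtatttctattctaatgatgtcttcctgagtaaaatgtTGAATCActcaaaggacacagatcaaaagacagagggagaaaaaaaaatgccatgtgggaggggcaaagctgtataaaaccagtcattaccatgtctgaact
PLAUR: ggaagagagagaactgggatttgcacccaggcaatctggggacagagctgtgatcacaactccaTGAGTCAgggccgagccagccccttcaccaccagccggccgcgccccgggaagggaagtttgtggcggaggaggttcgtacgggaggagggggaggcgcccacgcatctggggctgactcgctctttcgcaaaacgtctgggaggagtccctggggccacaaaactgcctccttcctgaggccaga
F3 holds TGAATCA from -223 to -217 and TGAGTCA from -210 to -204, where -1 is the last base before the start. TFPI2 holds the κB match GGGGAATTCC from -152 to -143 and TGAATCA from -87 to -81. The match of SERPINB2, TGAATCA, lies from -102 to -96, and that of PLAUR, TGAGTCA, from -186 to -180. Of these 4 genes F3, SERPINB2 and PLAUR rose and TFPI2 fell, so genes with an AP-1 match moved in both directions. No match was found in these windows of TFPI, PLAU or SERPINE2.

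PLAT, PLAUR, SERPINB2, TFPI and TFPI2 were measured with standard errors of the log2 change from 0.0329 to 0.050, while PLAU, SERPINE2 and F3, with at most 178 exon reads per library, had standard errors from 0.115 to 0.166.

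Both plasminogen activators fell. PLAU (ENSG00000122861, chromosome 10, 73909177 to 73917496, plus strand, hg38) encodes the secreted protease urokinase. Exon reads numbered 163, 137 and 140 in the shCtrl and 78, 65 and 60 in the shNFKBIZ libraries. Every shNFKBIZ library was below every shCtrl library. The level went from 8.12 ± 0.837 to 3.92 ± 0.554 TPM (SD, n = 3), a log2 change of -1.13 (SE 0.137, adjusted P 2.60e-07, edgeR quasi-likelihood test). Reads that span splice junctions also fell, from 54, 34 and 48 to 23, 20 and 22. Its introns held only 2 to 8 reads per library and were not tested, and C10orf55, a lncRNA on the opposite strand, had 0 reads.

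PLAT (ENSG00000104368, chromosome 8, 42174718 to 42207709, minus strand) encodes tissue-type plasminogen activator and was the more abundant activator. Exon reads were 3932, 3946 and 3786 with the control hairpin and 1151, 1105 and 1078 in shNFKBIZ. The groups were far apart compared with the spread within each. The level fell from 81.6 ± 2.74 to 24.4 ± 1.01 TPM (SD, n = 3), 3.53-fold lower, with a log2 change of -1.82 (SE 0.0412, adjusted P 1.61e-19, edgeR). This was the largest change among the members, and 1.83% of all genes tested had a larger fitted change. Intron reads, which come mostly from unspliced RNA, fell from 492, 471 and 422 to 109, 110 and 117, a log2 change of -2.13 (SE 0.0895, adjusted P 4.78e-21, edgeR).

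The receptor went the other way. PLAUR (ENSG00000011422, chromosome 19, 43646095 to 43670547, minus strand) holds urokinase at the cell surface. Exon reads numbered 3935, 4026 and 4123 in shCtrl and 5056, 5042 and 4985 in shNFKBIZ. All shNFKBIZ libraries lay above all shCtrl libraries, by a margin that was small for so abundant a gene. The level rose from 147.6 ± 11.1 to 192.8 ± 4.41 TPM (SD, n = 3), and the log2 change was 0.30 (SE 0.0390, adjusted P 5.48e-07, edgeR), short of 2-fold. A larger fitted change was found in 49.4% of all genes tested. RN7SL368P, which lies within PLAUR on the same strand, had 4 to 10 exon reads per library. The ratio of PLAU to PLAUR, ligand to receptor, went from 0.0551 ± 0.00648 to 0.0203 ± 0.00267 (SD, n = 3), a value given without a test.

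Both activator inhibitors among the members rose, from very different levels. SERPINE2 (ENSG00000135919, chromosome 2, 223975045 to 224039318, minus strand) encodes protease nexin-1, a serpin that inhibits thrombin and the plasminogen activators. The shCtrl libraries held 43, 33 and 29 of its exon reads and the shNFKBIZ libraries 109, 107 and 126. The lowest shNFKBIZ library held more reads than any pair of shCtrl libraries together. Its level was 0.636 ± 0.118 TPM in shCtrl and 2.17 ± 0.166 TPM in shNFKBIZ (SD, n = 3), a log2 change of 1.69 (SE 0.166, adjusted P 9.95e-09, edgeR). In TPM it stayed the lowest of the detected members, though in shNFKBIZ it held more exon reads than PLAU, whose exon length is shorter (2949 against 8957 bases). Intron reads were 7 in all shCtrl and 28 in all shNFKBIZ libraries. After scaling to normalized intron library sizes the ratio was 3.76 (exact 95% interval 1.60 to 10.2, which covers counting error only).

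SERPINB2 (ENSG00000197632, chromosome 18, 63871692 to 63903888, plus strand) encodes PAI-2, an inhibitor of urokinase and tissue-type activator that is found largely inside cells. Exon reads were 5394, 5077 and 5574 in shCtrl and 8166, 7899 and 8293 in shNFKBIZ. The groups did not overlap, and the shNFKBIZ libraries were closer to each other than the shCtrl libraries. The level rose from 319 ± 32.3 to 506 ± 4.37 TPM (SD, n = 3), a log2 change of 0.59 (SE 0.050, adjusted P 1.66e-07, edgeR), short of 2-fold. Only 70.9% of its exon reads in shCtrl mapped uniquely, whereas in the other tested members all did. Intron reads rose by more, from 207, 186 and 218 to 425, 372 and 429 (log2 change 0.91, SE 0.0894, adjusted P 1.53e-10, edgeR), but in shCtrl 30.8% of them were unique. With unique intron reads alone the change was 1.03 and without shNFKBIZ replicate 2 it was 1.01, both past 2-fold. The protein-coding gene ENSG00000289724, which overlaps SERPINB2 on the same strand, had 0 to 4 exon reads per library.

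Activators were then set against inhibitors in each library. The summed level of PLAU and PLAT fell from 89.7 ± 3.27 to 28.4 ± 1.54 TPM (SD, n = 3), and that of SERPINE2 and SERPINB2 went from 319.7 ± 32.3 to 508 ± 4.46 TPM. The ratio of the sums was 0.285, 0.299 and 0.263 in the shCtrl libraries and 0.0584, 0.0568 and 0.0523 in the shNFKBIZ libraries. It was therefore 5.05-fold lower in shNFKBIZ, or -2.34 as the difference of the mean log2 ratios, with no overlap. No test is attached, because the grouping was made with results of these data known, and inhibitors other than SERPINE2 and SERPINB2 were not counted in the sum. Among those left out was TFPI2, which acts on plasmin and fell. PLAT and SERPINB2 carried most of both sums, since PLAU was 9.04% of the activators and SERPINE2 0.200% of the inhibitors in shCtrl. The ratio of PLAT to SERPINB2 alone went from 0.257 ± 0.0173 to 0.0483 ± 0.00213, and that of PLAU to SERPINE2 from 12.9 ± 1.60 to 1.82 ± 0.364.

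**Figure D2:**
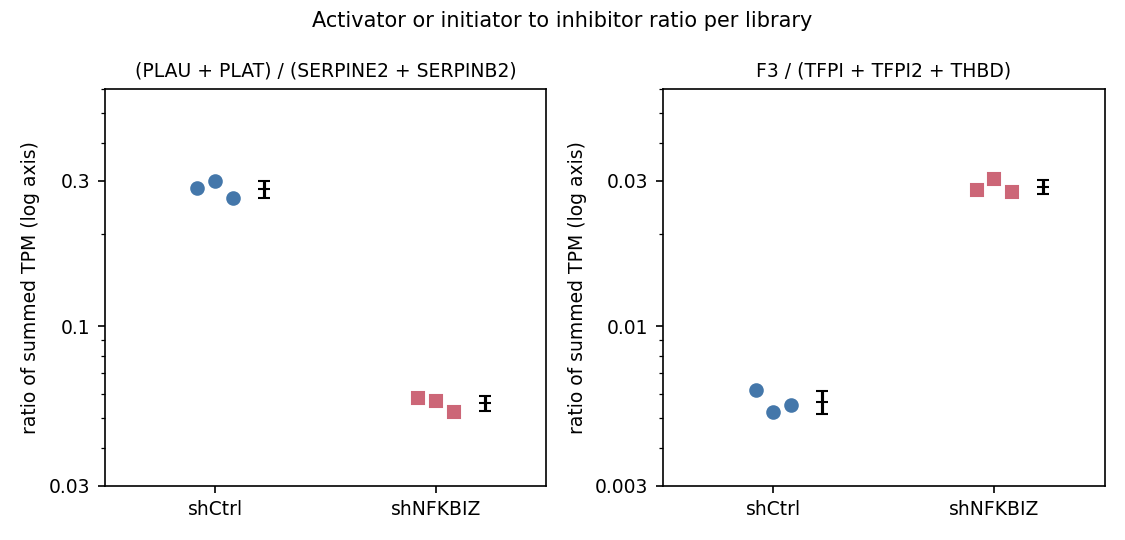
Ratio of summed TPM in each library (log axes), for PLAU and PLAT over SERPINE2 and SERPINB2 (left) and for F3 over TFPI, TFPI2 and THBD (right), with the mean ± SD of 3 libraries beside the points. The left ratio is lower in all shNFKBIZ libraries (means 0.282 and 0.0558) and the right ratio higher in all of them (means 0.00564 and 0.0287).

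In coagulation the initiator rose. F3 (ENSG00000117525, chromosome 1, 94529173 to 94541759, minus strand) encodes tissue factor, the membrane receptor of factor VII. Exon reads amounted to 99, 85 and 85 in the shCtrl libraries and to 168, 178 and 168 in the shNFKBIZ libraries. All shNFKBIZ libraries were above all shCtrl libraries, with little spread in either group. The level rose from 5.07 ± 0.469 to 10.2 ± 0.503 TPM (SD, n = 3), and the log2 change was 0.92 (SE 0.115, adjusted P 3.94e-07, edgeR), a 1.89-fold rise that missed the 2-fold limit. It was past that limit with library size alone (1.01) and with junction reads (1.12). Intron reads of 9, 11 and 7 against 17, 12 and 17 gave 0.67 (SE 0.351, adjusted P 0.128, edgeR). With so few reads, no difference was detected.

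Among the inhibitors, TFPI (ENSG00000003436, chromosome 2, 187464230 to 187565760, minus strand) blocks factor Xa and the tissue factor complex. Exon reads were 2922, 3068 and 2754 in shCtrl and 949, 914 and 1012 in shNFKBIZ. The groups were widely separated. The level fell from 40.5 ± 0.368 to 14.0 ± 0.494 TPM (SD, n = 3), a log2 change of -1.62 (SE 0.0438, adjusted P 3.15e-18, edgeR). Intron reads fell less, from 327, 333 and 369 to 202, 244 and 208, with -0.75 (SE 0.0851, adjusted P 4.66e-09, edgeR). Introns made up 10.5% of its gene reads in shCtrl and 18.5% in shNFKBIZ. Strand was not used in the counting, and the lncRNA CALCRL-AS1, which lies opposite to part of TFPI, had 339 to 364 intron reads in shCtrl and 463 to 489 in shNFKBIZ. Its part in the intron reads of TFPI was not tested.

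TFPI2 (ENSG00000105825, chromosome 7, 93885396 to 93890753, minus strand) was the most abundant member in shCtrl cells. It had 12977, 13122 and 12469 exon reads there and 4883, 4758 and 4939 in shNFKBIZ. The shNFKBIZ libraries were almost equal and far below the others. The level fell from 858 ± 24.9 to 339.8 ± 1.32 TPM (SD, n = 3), a log2 change of -1.42 (SE 0.0329, adjusted P 2.50e-19, edgeR). Intron reads fell from 252, 284 and 253 to 72, 83 and 81, with -1.83 (SE 0.105, adjusted P 6.90e-17, edgeR). TFPI2 lies opposite to GNGT1, which had 376 to 438 intron reads in shCtrl and 296 to 344 in shNFKBIZ. Of the sequences shown above, that of TFPI2 holds the only full match to the κB consensus searched, and sites that depart from it were not sought.

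THBD (ENSG00000178726, chromosome 20, 23045633 to 23049672, minus strand), which has 1 exon, had 0 reads in every library. A count of 0 allows up to 3 reads, or 0.116 to 0.129 TPM per library, so no fold change is given.

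F3 was then set against the coagulation inhibitors among the members, of which THBD acts on thrombin rather than on F3. The sum of TFPI, TFPI2 and THBD went from 899 ± 24.9 to 354 ± 1.51 TPM (SD, n = 3). The ratio of F3 to this sum was 0.00617, 0.00523 and 0.00552 in the shCtrl libraries and 0.0280, 0.0305 and 0.0276 in the shNFKBIZ libraries. It was 5.10-fold higher in shNFKBIZ, or 2.35 as the difference of the mean log2 ratios, again as a value with no test. TFPI made up 4.51% of the sum in shCtrl, so the sum followed TFPI2. The rise of F3 itself, from 5.07 to 10.2 TPM, added to the change in the ratio. Against TFPI alone, the inhibitor that acts most directly on the tissue factor complex, the ratio of F3 went from 0.125 ± 0.0125 to 0.728 ± 0.0589, and F3 remained below TFPI in every library.

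Exon and intron reads were compared to ask whether mature and unspliced RNA changed alike. Of 6 members with enough intron reads, PLAT and TFPI2 were past the threshold in intron reads, as were 6.60% of 12119 genes. By adjusted P alone SERPINB2 and TFPI were called too, which makes 4 of 6, against 38.8% of all genes. PLAUR and F3 did not reach it, and for PLAUR (0.15, SE 0.0674, adjusted P 0.0718, edgeR) library size alone gave 0.21 with an adjusted P of 0.0129. In all 6 the intron change had the sign of the exon change, but agreement in sign was not counted over all genes.

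Tested as an interaction in one model, the exon and intron changes differed in 4 of 6 members, against 28.9% of 11025 genes. The largest difference was that of TFPI, whose exon log2 fold change was lower than its intron change by -0.87 (SE 0.0925, adjusted P 1.29e-13, edgeR). For PLAT and TFPI2 the introns fell more than the exons, with differences of 0.31 (SE 0.0992, adjusted P 0.0110, edgeR) and 0.41 (SE 0.111, adjusted P 0.00232, edgeR). For SERPINB2 the introns rose more than the exons, with -0.33 (SE 0.0857, adjusted P 0.00171, edgeR). This test used total reads only, and in shCtrl 30.8% of the intron reads of SERPINB2 were unique. Differences in PLAUR (0.15, adjusted P 0.116, edgeR) and F3 (0.24, adjusted P 0.682, edgeR) did not pass the test. Of the 4 genes that passed, TFPI alone had introns that moved less than its exons. The part of CALCRL-AS1, which lies opposite to TFPI, in this difference was not tested.

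**Figure D3:**
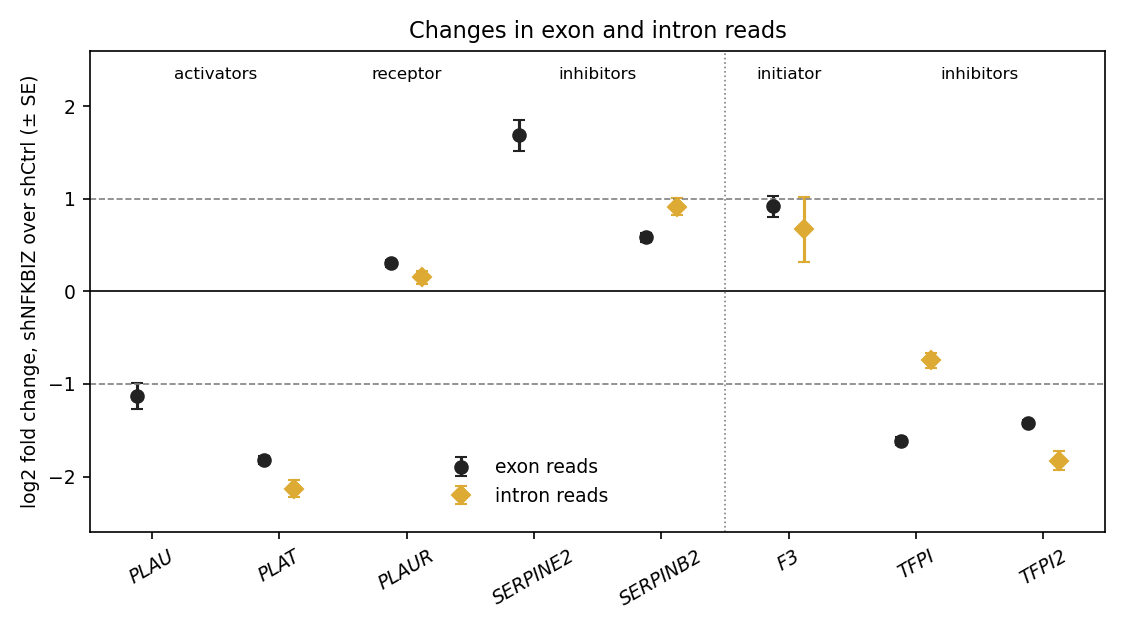
Log2 fold change (shNFKBIZ over shCtrl, ± SE) of exon reads (circles) and intron reads (diamonds) for the members tested, with dashed lines at 2-fold. TFPI, with -1.62 in exons and -0.75 in introns, has the widest gap, and PLAU and SERPINE2 have no intron value because their intron reads were too few.

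The other genes of both systems were read from 2 lists. Of 17 further genes of the plasminogen system 11 were tested, 1 of which was past the threshold, a share close to the 8.96% of all genes. That gene was S100A10, which with ANXA2 forms a surface receptor for plasminogen and tissue-type activator. Its 756, 761 and 692 shCtrl and 296, 256 and 290 shNFKBIZ exon reads did not overlap, with a log2 change of -1.40 (SE 0.0671, adjusted P 5.35e-14, edgeR). With an adjusted P of 0.05 or less, 3 genes of the list were higher and 7 lower, with a median of -0.43 over the 11, where 65.3% of all genes had such a P. The higher ones were the clearance receptor LRP1 (0.39), the collagen receptor MRC2 (0.38) and the matrix protein THBS1 (0.54). The lower ones were, beside S100A10, VLDLR (-0.95), a receptor of the same family as LRP1, F12 (-0.88), SERPINI1 (-0.53), an inhibitor of tissue-type activator, ENO1 (-0.50), ANXA2 (-0.43) and PLGRKT (-0.33). Exon reads of plasminogen itself (PLG) were 4, 1 and 1 for shCtrl and 9, 6 and 6 for shNFKBIZ, none of them across a splice junction, and was not tested.

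Of 28 further coagulation genes 12 were tested and 9 had 0 exon reads in every library. Among these were F7 and F10, which encode the factors that act with F3. F2RL1, a protease-activated receptor that the tissue factor complex can cleave, was the 1 gene of the 12 past the threshold, against 8.96% of all genes. Counts were 994, 1009 and 1051 for shCtrl and 358, 326 and 347 for shNFKBIZ, with no overlap, and a log2 change of -1.58 (SE 0.0635, adjusted P 2.72e-15, edgeR). Thrombin receptor F2R, at -0.41, and PROS1, the cofactor of activated protein C, at -0.63, fell too. By adjusted P alone (0.05 or less), 3 genes were higher and 6 lower, against 65.3% of all genes in either direction, and the median over the 12 was -0.14. MCFD2 (0.81) rose and LMAN1 (-0.53) fell, whose products work together in the secretion of factors V and VIII. The others that passed were F8 (0.36) and VKORC1 (0.22), which were higher, and PROCR (-0.13) and ANXA5 (-0.15), which were lower. In TPM the groups overlapped for PROCR (means 228 in shCtrl and 221 in shNFKBIZ). These small changes were not examined under other scaling.

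**Figure D4:**
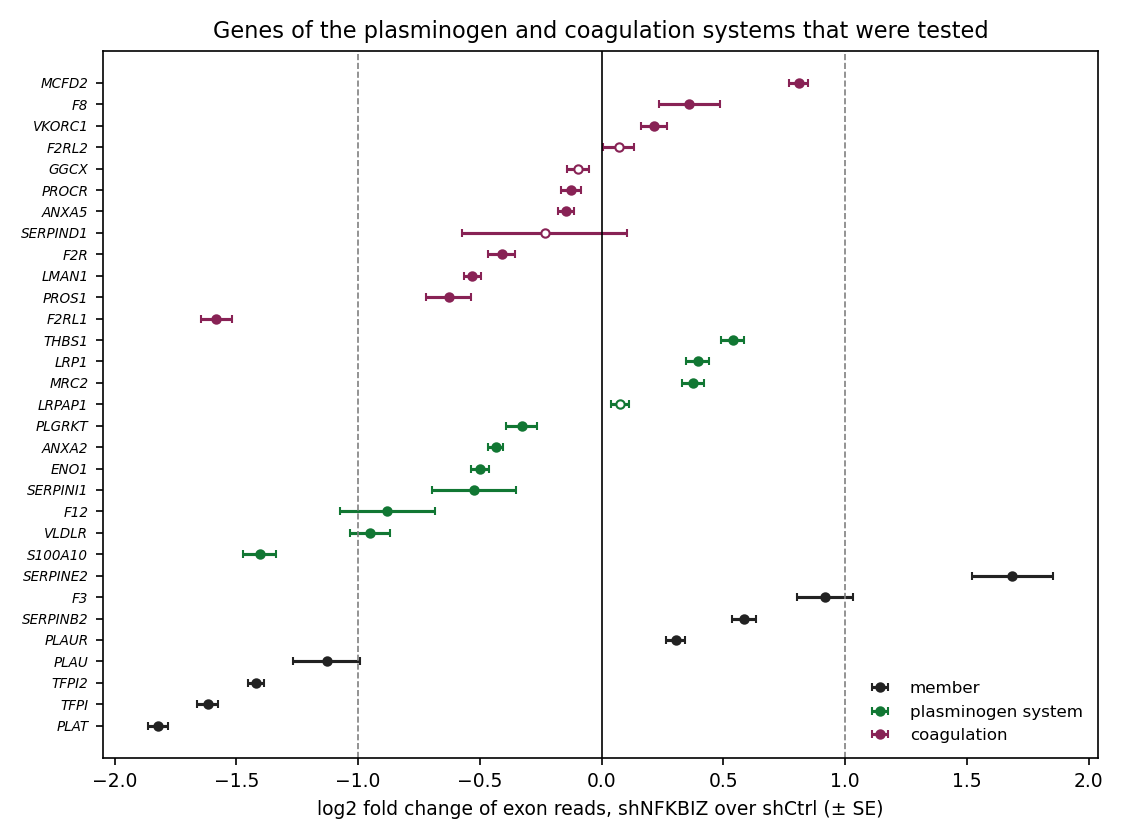
Log2 fold change of exon reads (shNFKBIZ over shCtrl, ± SE) for the 8 tested members and the tested genes of the plasminogen system and coagulation lists, with dashed lines at 2-fold and open circles where the adjusted P was above 0.05. Of the listed genes S100A10 and F2RL1 lie past the dashed lines, both lower, while SERPINE2 is the one gene past the line on the higher side.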

How the data were processed

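RNA-seq libraries of shCtrl and shNFKBIZ LOX-IMVI cells (3 each, grouped by sample titles) were used. The authors mapped reads to hg38 (GRCh38) in CLC Genomics Workbench and deposited whole-number counts of exon, intron and junction reads per gene, as total and unique reads. Strand was not used in the counting. TPM were computed anew from exon length and total exon reads and differed from the deposited values by at most a relative 0.000264. The sources name different sequencing providers for these libraries, so none is given.

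Total exon counts were tested with edgeR 4.0.16 (filterByExpr, TMM factors, robust glmQLFit, glmQLFTest) as a two-sided test under R 4.3.3. P values were adjusted over all genes tested (Benjamini-Hochberg). Standard errors were the log2 fold change divided by the square root of F. Intron counts were fitted alike, and exon against intron changes as an interaction with library as a block. The steps were tested on simulated data. All pairs of replicates differed by more than counting noise (chi-square over its degrees of freedom 1.71 to 4.45). Low counts got exact 95% intervals, and a count of 0 an upper limit of 3 reads, which cover counting error only.

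The members, the pathway, marker and motif lists and the tests were chosen with earlier results of these data known. Named genes were the 9 members, NFKBIZ, genes of the lists past the threshold, PLG, F7, F10 and genes that overlap a member. The other listed genes with an adjusted P of at most 0.05 were named after their values were seen. One gene of the plasminogen system list and 1 leukocyte marker are not reported here. Alternatives were RLE factors, library size alone, other filters, the likelihood ratio test, DESeq2 1.42.0, unique, gene or junction reads, a replicate block, other thresholds and leaving out each library.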

Additional observations from a re-analysis of the deposited data

How the results depend on the processing

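Across 17 other fits of exon reads and 10 of intron reads no member changed direction, and every tested member kept an adjusted P of at most 0.05 in exon reads. The log2 fold change ranged from -1.25 to -1.03 for PLAU, -1.86 to -1.72 for PLAT, 1.59 to 1.85 for SERPINE2, 0.52 to 0.67 for SERPINB2, 0.86 to 1.12 for F3, -1.65 to -1.50 for TFPI and -1.44 to -1.30 for TFPI2. Leaving out 1 library gave 1315 to 1361 genes past the threshold. Junction reads gave 700 genes, in place of 1241, and a required TPM difference above 4 gave 555 (167 higher, 388 lower) and removed SERPINE2, whose level is low. With no fold limit 8 members and 9039 genes (4496 higher, 4543 lower) were called. In intron reads 466 genes, in place of 800, were past the threshold when 10 counts were required in every library, which leaves fewer genes to test. Same-numbered libraries were not treated as pairs (correlation of their deviations 0.0207, 0.0561 and 0.0288), though these values cannot show how they were prepared. A replicate block gave 5 members and 1244 genes in exon reads and 2 members and 801 genes in intron reads. Depth limits PLAU, SERPINE2 and F3, and above all their introns.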
